A study of Mus musculus with 12 samples.

Results

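Aminoacyl-tRNA synthetases load each tRNA with its amino acid before the tRNA enters the ribosome. Cytosolic and mitochondrial translation mostly use separate synthetases, both encoded in the nucleus. In mouse the mitochondrial ones mostly carry names ending in 2, and Gars and Kars each encode a form for both compartments. Many cytosolic synthetase genes are known ATF4 targets, ATF4 being a transcription factor that cells make more of when amino acids run short. In these libraries 36 synthetase genes were followed, chosen by name from a list of 20 cytosolic and 16 mitochondrial ones among the 25117 symbols of the expression table. All 36 passed the filter on low values, and 12653 symbols in all did. Mars is spelled Mars1 in the table.

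The data are 12 RNA-seq libraries of mouse embryonic fibroblasts (MEFs), 3 in each of 4 groups. All the cells were Rbbp5 (flox/flox); Rosa26 CRE (+/+), so the floxed alleles and the recombinase were shared by every group. RBBP5 is a core subunit of the COMPASS histone H3 lysine 4 methyltransferases. The libraries labelled KO EBSS came from cells given tamoxifen for 7 days and then EBSS, a balanced salt solution without amino acids or serum, for 16 hours, and those labelled wildtype EBSS from cells given EBSS without tamoxifen. The KO full-medium libraries came from cells given tamoxifen and then DMEM with 10% FBS, and the wildtype full-medium libraries from cells given neither tamoxifen nor EBSS. An effect of tamoxifen itself cannot be told apart from one of Rbbp5 loss. The labels number the replicates as biological but do not say whether they are separate embryos or cultures, so p-values measure the spread between these samples, which may be technical.

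Rbbp5 was the check of the labels, with levels in TPM, a relative transcript abundance that corrects for length. Labelled KO EBSS had Rbbp5 levels of 31.9, 24.6 and 23.0 TPM, against 12.4, 14.0 and 11.8 TPM for labelled wildtype EBSS. The gene stood at 7.47, 9.34 and 8.31 TPM in KO full medium, against 26.2, 25.7 and 26.2 TPM in wildtype full medium. The full-medium values followed their labels and the EBSS values went against theirs, so the EBSS groups are called by their labels throughout. Which exons are floxed is not given in the sources used here.

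Other features of whole libraries moved with the groups. Ribosomal protein mRNAs made up 32.2% to 34.7% of TPM in labelled wildtype EBSS, against 14.8% to 18.4% elsewhere, and the ribosomal RNA symbol Rn45s stood at 1454 to 2105 TPM there, against 68.3 to 272 TPM elsewhere. Replicate 3 of that group listed 1122 tested genes at 0, against 12 to 229 in the other 11 libraries. All 9 fibroblast markers (Col1a1, Col1a2, Pdgfra, Pdgfrb, Thy1, Vim, Fn1, Prrx1 and Twist1) summed to 5169 to 6710 TPM in labelled KO EBSS, 3262 to 3649 TPM in labelled wildtype EBSS, 4428 to 5129 TPM in KO full medium and 6674 to 6693 TPM in wildtype full medium. The abundant Vim, at a mean of 3090 TPM in KO and 2840 TPM in wildtype full medium, was the 1 marker higher in KO. The median log2 change of the 9 markers in that comparison was -1.04, beside -0.17 for all tested genes. Col1a1 averaged 265 TPM in KO and 1051 TPM in wildtype full medium. The 6 macrophage markers summed to 17.3 to 21.0 TPM in labelled KO EBSS, 17.8 to 77.0 TPM in labelled wildtype EBSS, 60.8 to 65.4 TPM in KO full medium and 17.0 to 17.3 TPM in wildtype full medium. Cd68 made up most of these sums except in replicate 3 of labelled wildtype EBSS, the 77.0 TPM library, where Lyz2 was at 48.4, Cd68 at 20.4 and Adgre1 at 3.38 TPM, and Adgre1 was at 0 in labelled KO EBSS and wildtype full medium. The 5 endothelial and 5 epithelial markers summed to at most 7.39 and 11.2 TPM in any library. The part of these features in the synthetase results was not tested. Fewer cells of a type and less RNA per cell cannot be told apart in bulk RNA.

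The cytosolic synthetases were the abundant ones. In KO full medium their means ran between 54.7 TPM for Dars and 417 TPM for Nars, and in wildtype full medium between 54.3 TPM for Cars and 341 TPM for Nars. The mitochondrial synthetases ran between 1.42 TPM for Ears2 and 41.7 TPM for Yars2 in KO full medium, and between 3.21 TPM for Nars2 and 42.4 TPM for Yars2 in wildtype full medium. Over the 6 full-medium libraries the lowest cytosolic value, 52.6 TPM, lay above the highest mitochondrial value, 45.4 TPM. The lists thus did not overlap, with Gars and Kars, which serve both compartments, counted as cytosolic. In labelled wildtype EBSS the lists did overlap, because Dars and Farsb averaged 21.0 and 21.4 TPM and Lars2 averaged 55.7 TPM.

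For 13 amino acids the list holds a cytosolic gene and a mitochondrial gene of the same name. The ratio of their mean TPM in KO full medium ran between 1.94 for Cars over Cars2 and 106 for Nars over Nars2, with a median of 7.56. In wildtype full medium it ran between 1.68 for Iars over Iars2 and 106 for Nars over Nars2, with a median of 6.88. The next lowest ratio in wildtype full medium was 2.02, for Yars over Yars2, so isoleucine and tyrosine had the most alike RNA levels in the compartments and asparagine the least alike.

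The summed TPM of the 20 cytosolic genes was 5437, 2626 and 2531 in labelled KO EBSS, 1788, 1921 and 1889.9 in labelled wildtype EBSS, 3064, 3188 and 3288 in KO full medium and 2753, 2681 and 2717 in wildtype full medium. Replicate 1 of labelled KO EBSS stood far above the other 11 libraries, and the labelled wildtype EBSS libraries lay lowest. The summed TPM of the 16 mitochondrial genes was 290.1, 259.9 and 274 in labelled KO EBSS, 217, 256 and 225 in labelled wildtype EBSS, 289, 281 and 314 in KO full medium and 311, 295 and 308 in wildtype full medium. The mitochondrial sum showed no library that stood apart. The ratio of the cytosolic to the mitochondrial sum was 18.7 in replicate 1 of labelled KO EBSS and 7.52 to 11.3 in the others.

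**Figure D1:**
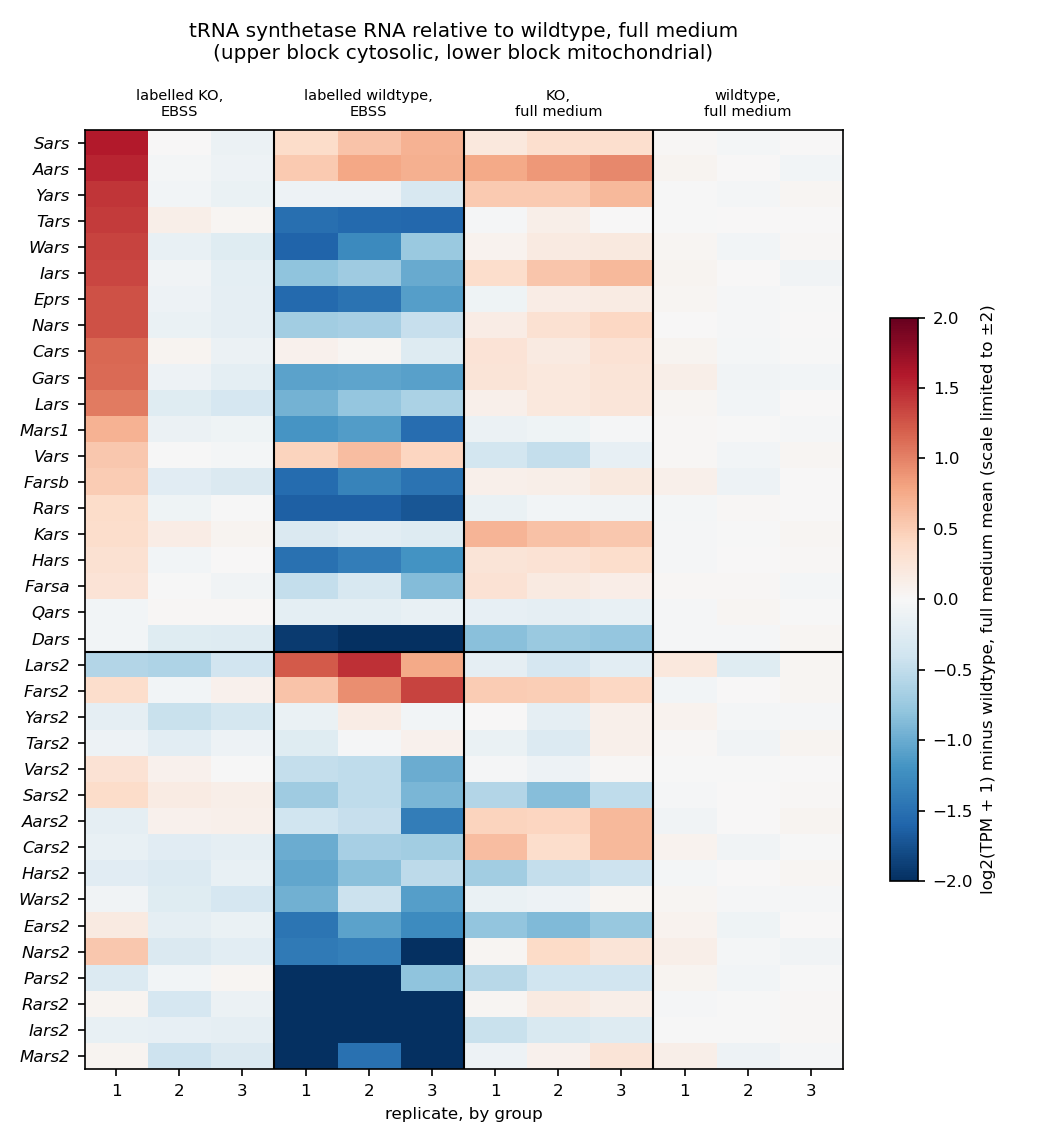
Each row is a synthetase gene, each column a library, and colour gives log2(TPM + 1) minus the mean of the 3 wildtype full-medium libraries, limited to ±2. Sars to Lars at the top are dark red in replicate 1 of labelled KO EBSS and near white in replicates 2 and 3, and most rows are blue in labelled wildtype EBSS.

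Replicate 1 of labelled KO EBSS carried raised cytosolic synthetases that its group's other libraries lacked. Nars was at 825, 311 and 300.3 TPM in labelled KO EBSS, against 344, 336 and 343 TPM in wildtype full medium. Tars was at 644, 267 and 251 TPM in labelled KO EBSS, against 243, 245 and 245 TPM in wildtype full medium. Aars, which charges alanine tRNA, was at 519, 176 and 168 TPM in labelled KO EBSS, against 188, 181 and 174 TPM in wildtype full medium. In each of these genes replicates 2 and 3 lay within 1.5-fold of the wildtype full-medium mean and replicate 1 lay well above every other library.

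The cytosolic genes that were high in replicate 1 divided along the ATF4 list. Against the wildtype full-medium mean, 12 of the 20 cytosolic genes were at least 1.5-fold higher on the TPM + 1 scale. They were the 12 listed here as ATF4 targets (Aars, Cars, Eprs, Gars, Iars, Lars, Mars1, Nars, Sars, Tars, Wars and Yars). None of the other 8 (Dars, Farsa, Farsb, Hars, Kars, Qars, Rars and Vars) and none of the 16 mitochondrial genes passed that fold. Of all tested genes 9.22% did so in this library. In replicate 2 the count was 0 of 20, with 0.759% of all tested genes past the fold, and in replicate 3 it was also 0 of 20, with 0.711%. The median log2 difference in replicate 1 was 1.31 for the 12 listed genes, 0.33 for the other 8 cytosolic genes, -0.09 for the 16 mitochondrial genes and 0.02 for all tested genes. Qars, which charges glutamine tRNA, was at 98.0, 103 and 103 TPM in labelled KO EBSS, against 99.7, 105 and 101 TPM in wildtype full medium, so its libraries overlapped. This is a difference of 1 library with no replicate, so no test was run on it. The list was chosen with earlier results of these data known, so its match to this division is not independent evidence. The division also depends on the fold chosen, because the unlisted Vars and Farsb lay just under it. In replicate 1 Vars was at 197 TPM, against 137, 129 and 138 TPM in wildtype full medium. Farsb was at 85.5 TPM there, against 64.4, 55.5 and 60.2 TPM in wildtype full medium.

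ATF4 and its companion genes were high in the same library. All 13 of them were at least 1.5-fold above the wildtype full-medium mean in replicate 1, with a median log2 difference of 1.86. Ddit3, which encodes the stress transcription factor CHOP, was at 1937, 249 and 160.3 TPM in labelled KO EBSS, against 186, 172 and 157 TPM in wildtype full medium. Trib3, a pseudokinase gene downstream of ATF4, was at 307, 27.1 and 21.0 TPM in labelled KO EBSS, against 40.8, 31 and 35.5 TPM in wildtype full medium. Atf4 itself was at 1420.0, 533 and 507 TPM in labelled KO EBSS, against 511, 531 and 552 TPM in wildtype full medium. Xpot, the exporter of tRNA from the nucleus, was at 182, 62.9 and 58.6 TPM in labelled KO EBSS, against 76.2, 67.0 and 72.1 TPM in wildtype full medium.

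The same libraries set side by side within labelled KO EBSS gave a similar but not identical division, which rests on the same replicate 1. Against the mean of replicates 2 and 3, replicate 1 was at least 1.5-fold higher for 12 of 12 listed cytosolic genes, 1 of the other 8, 1 of 16 mitochondrial genes and 13 of 13 companions, beside 9.61% of all tested genes. The listed genes ran between 0.80 and 1.63 on the log2 scale, with a median of 1.42. Mars1, the lowest of them (1.74-fold), lay close to the unlisted Nars2 (1.73-fold) and Farsb (1.70-fold).

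**Figure D2:**
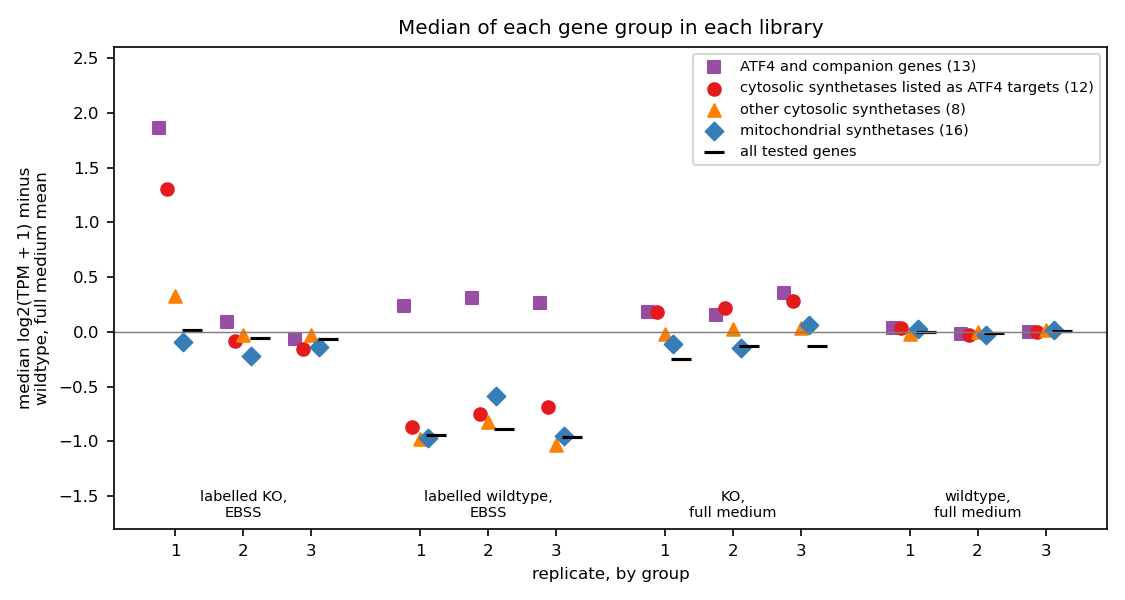
Points give the median log2(TPM + 1) difference from the wildtype full-medium mean for each gene group in each of the 12 libraries. Replicate 1 of labelled KO EBSS has its companion genes at 1.86 and the ATF4-listed synthetases at 1.31, while the other cytosolic and the mitochondrial synthetases stay at 0.33 and -0.09, and in labelled wildtype EBSS the synthetase groups lie between -0.59 and -1.04, beside -0.89 to -0.96 for all tested genes.

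Promoter windows were searched for a sequence element that ATF4 binds, and some of the listed genes held it. ATF4 binds composite C/EBP-ATF elements with the core TGATGNAA, read on either strand (TTNCATCA on the opposite one). Of the 36 genes, 27 had a window of 300 bases in the RefSeq promoter table (GRCm38.p6), running from 250 bases before the start site to 50 after it. The letters were found in 5 of 13 cytosolic windows and in 0 of 14 mitochondrial ones, against 3.97% of all 32851 windows. The 5 were Aars, Gars, Iars, Tars and Yars, out of 8 listed genes with a window (Eprs, Mars1 and Sars did not hold it), while 0 of the 5 unlisted cytosolic genes had it. A match is a description of the sequence and not evidence of binding. The stretches are printed below to show where the element lies, 5′ to 3′ along the gene's strand, with the matching letters in capitals.
Aars, chr8:111033670-111033797 (+): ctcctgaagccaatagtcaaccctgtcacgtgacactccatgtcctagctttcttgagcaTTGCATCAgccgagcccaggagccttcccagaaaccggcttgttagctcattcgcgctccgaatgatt
Gars, chr6:55037911-55038025 (+): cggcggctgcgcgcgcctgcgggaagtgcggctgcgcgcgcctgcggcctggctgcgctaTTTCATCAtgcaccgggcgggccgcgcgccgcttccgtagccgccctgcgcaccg
Iars, chr13:49682077-49682154 (+): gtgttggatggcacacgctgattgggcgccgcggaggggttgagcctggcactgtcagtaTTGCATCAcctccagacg
Tars, chr15:11399634-11399733 (-): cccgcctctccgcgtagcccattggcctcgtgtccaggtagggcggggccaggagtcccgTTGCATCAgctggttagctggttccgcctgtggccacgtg
Yars, chr4:129189846-129189927 (+): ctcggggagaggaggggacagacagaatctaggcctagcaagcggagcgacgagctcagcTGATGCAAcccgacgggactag
Counted from the start site, the element began at -112 in Aars, -30 in Gars, 8 in Iars, -15 in Tars and 4 in Yars, and Aars held another match at 10. It lay on the gene's own strand in Yars and on the opposite strand in the other 4 genes.

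In full medium, loss of Rbbp5 after tamoxifen went with changes in single synthetases in both directions, and most cytosolic genes lay above the median change of all genes. Differences were tested with limma on log2(TPM + 1) over all 12 libraries, with Benjamini-Hochberg adjustment over all 12653 genes and 0.05 as the threshold, and a gene that passed is called. Of the cytosolic genes 3 of 20 were called higher and 2 lower, and of the mitochondrial genes 2 of 16 higher and 4 lower. Of all tested genes 20.1% were called higher and 35.8% lower. The median log2 change was 0.20 for the cytosolic genes and -0.05 for the mitochondrial ones, beside -0.17 for all tested genes, and 18 of 20 cytosolic and 10 of 16 mitochondrial genes lay above that median of all genes.

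Kars (chromosome 8, 111993443 to 112011323 in GENCODE vM21 on GRCm38), the lysine enzyme of both compartments, was at 292, 275 and 266 TPM in KO full medium, against 179, 180.5 and 187 TPM in wildtype full medium. All KO values lay above all wildtype values, and the change was a log2 of 0.60 (SE 0.08, limma adjusted p = 7.36e-05). Aars (chromosome 8, 111033144 to 111057664) was at 308, 329 and 354 TPM in KO full medium, against 188, 181 and 174 TPM in wildtype full medium. The groups were far apart, and the log2 change was 0.86 with an SE of 0.33 (limma adjusted p = 0.042), the wide error coming with the spread of labelled KO EBSS (SD 200.3 TPM). Without replicate 1 of labelled KO EBSS the SE of the Aars change was 0.08 (limma adjusted p = 6.2e-06).

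Hars, the histidine enzyme, was at 185, 189 and 198 TPM in KO full medium, against 152, 155 and 157 TPM in wildtype full medium. The groups did not overlap, and the log2 change was 0.30 (SE 0.10, limma adjusted p = 0.025). Its mitochondrial partner Hars2 was at 15.4, 18.3 and 19.0 TPM in KO full medium, against 25, 25.8 and 26.4 TPM in wildtype full medium, and fell by 0.53 on the log2 scale (SE 0.13, limma adjusted p = 0.0053). The annotated spans of the 2 genes overlap by 198 bases on opposite strands and 7.86% of the 31-base words of Hars transcripts also occur in other genes, first of all Hars2. Whether the counting used strand is not given in the sources used here, so reads may be divided between them.

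Dars (chromosome 1, 128363707 to 128417368), the aspartate enzyme, had the largest fall among the cytosolic genes. It was at 52.6, 56.2 and 55.3 TPM in KO full medium, against 93.8, 93.7 and 97.6 TPM in wildtype full medium. The groups lay well apart, with a log2 change of -0.79 (SE 0.14, limma adjusted p = 0.00061). Qars was at 90.5, 89.5 and 92.1 TPM in KO full medium, against 99.7, 105 and 101 TPM in wildtype full medium. Its fall of -0.16 on the log2 scale (SE 0.06, limma adjusted p = 0.034) turned to 0.02 under median-of-ratios scaling, which sets the libraries to a common median gene.

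Among the mitochondrial genes, Cars2, the cysteine enzyme, was at 35.2, 28.9 and 35.8 TPM in KO full medium, against 23.7, 21.5 and 22.4 TPM in wildtype full medium. It rose by a log2 of 0.54 (SE 0.12, limma adjusted p = 0.0024). Fars2, the phenylalanine enzyme, was at 16.3, 16.2 and 15.1 TPM in KO full medium, against 10.7, 11.3 and 11.5 TPM in wildtype full medium, a rise of 0.47 (SE 0.18, limma adjusted p = 0.041). Both were higher in every KO library than in any wildtype library.

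Ears2 (chromosome 7, 122037213 to 122067263), the glutamate enzyme, was at 1.45, 1.30 and 1.52 TPM in KO full medium, against 3.46, 3.01 and 3.29 TPM in wildtype full medium. At these low levels the log2(TPM + 1) scale understates the change, which was -0.81 (SE 0.14, limma adjusted p = 0.00059). Sars2, the serine enzyme, was at 10.4, 8.54 and 11.1 TPM in KO full medium, against 16.0, 16.2 and 16.4 TPM in wildtype full medium, a log2 change of -0.65 (SE 0.13, limma adjusted p = 0.0017). Iars2 also fell, by 0.33 on the log2 scale (limma adjusted p = 0.0051). For cysteine, phenylalanine, glutamate, serine, histidine and isoleucine the mitochondrial enzyme was thus called. Of the cytosolic enzymes for these amino acids (Cars, Farsa, Farsb, Eprs, Sars, Hars and Iars) only Hars was called over all 12 libraries. That contrast rests on replicate 1 of labelled KO EBSS, because Cars, Sars and Iars were called higher without it, as given below.

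Under all 4 scalings tried (TPM as deposited, median-of-ratios, quantile normalization, and TPM without ribosomal protein genes), Kars and Hars stayed called higher and Dars called lower among the cytosolic genes. Cars2 and Fars2 stayed called higher and Hars2 and Sars2 called lower among the mitochondrial ones. Median-of-ratios scaling moved the median change of all genes to 0.01. It gave 4 higher and 1 lower cytosolic calls and 4 higher and 3 lower mitochondrial calls. Of all tested genes 26.7% were then called higher and 27% lower. Quantile normalization gave 2 higher and 3 lower cytosolic calls, and 5 higher and 2 lower mitochondrial ones. Without ribosomal protein genes the cytosolic calls were 3 higher and 1 lower. The shares of all tested genes under quantile normalization and without ribosomal protein genes are not given here.

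The count of cytosolic calls turned on replicate 1 of labelled KO EBSS, which shares its spread with the other groups in the fit. Without it 9 of 20 cytosolic genes were called higher and 3 lower, with the changes themselves unaltered, beside 22.2% and 38.2% of all tested genes in that fit. With the 6 full-medium libraries alone 12 were called higher and 3 lower, beside 29.2% and 47.3%. Yars, the tyrosine enzyme, shows this. It was at 123, 123 and 134 TPM in KO full medium, against 85.5, 83.5 and 87.7 TPM in wildtype full medium, with a log2 change of 0.56 whose SE was 0.31 with that library (limma adjusted p = 0.15) and 0.07 without it (limma adjusted p = 8.3e-05). Iars, Sars, Nars, Gars, Cars and Vars likewise were called only without it, Vars as lower and the other 5 as higher. In the 6 full-medium libraries 12 of 20 cytosolic genes had every KO value above every wildtype value and 4 had every KO value below, beside 30.5% and 49.7% of all tested genes. Of the mitochondrial genes 4 lay wholly above and 5 wholly below.

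**Figure D3:**
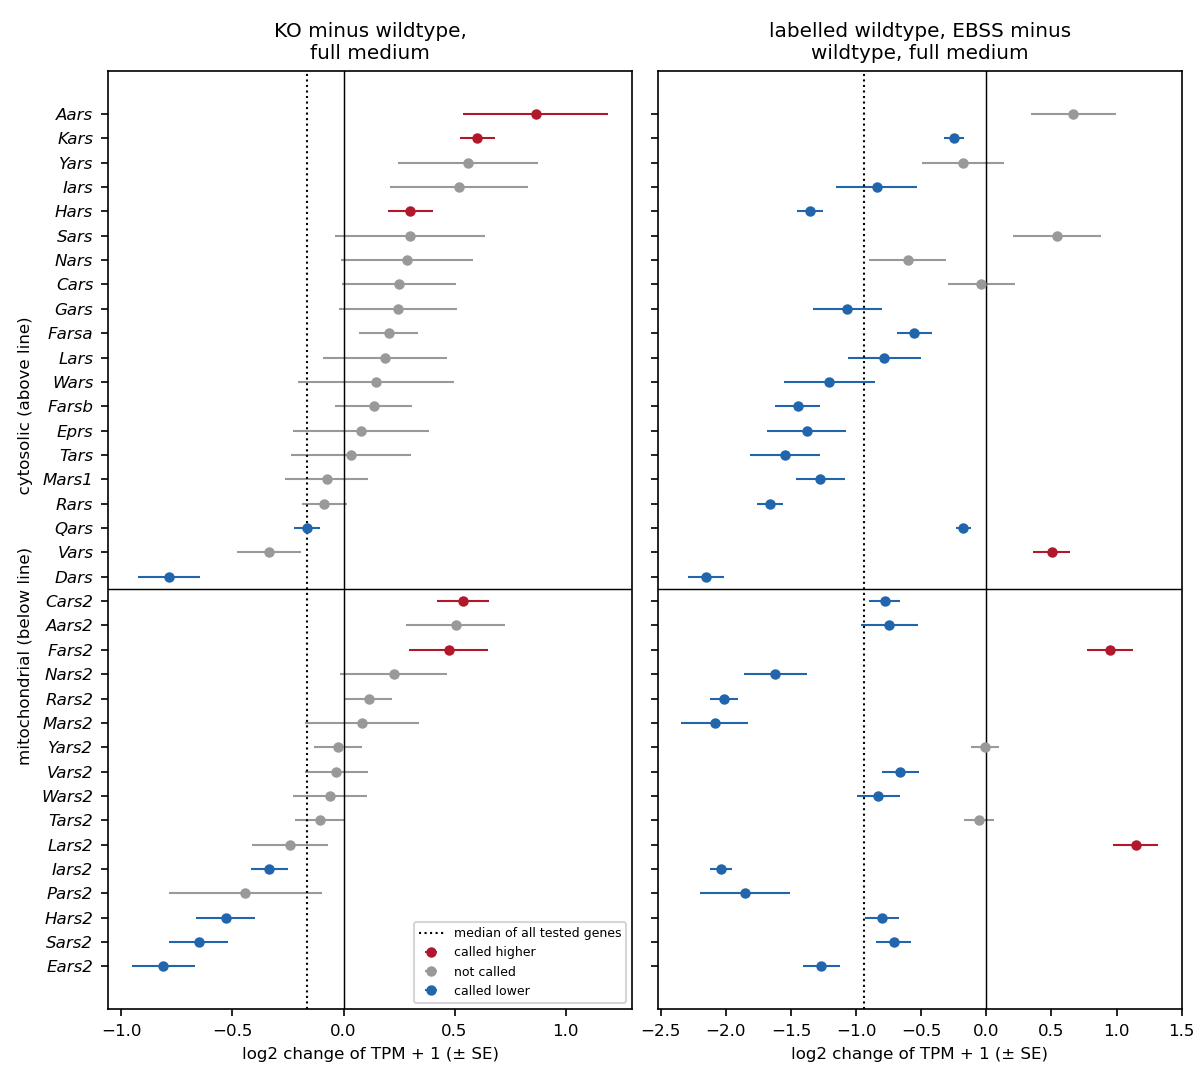
Points give the log2 change of TPM + 1 of each synthetase with its standard error from the fit over 12 libraries, with the dotted line at the median of all tested genes. In full medium most cytosolic genes lie right of the dotted line at -0.17 with wide bars, and in labelled wildtype EBSS the genes scatter on both sides of the dotted line at -0.94.

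In the libraries labelled wildtype EBSS most synthetases were lower than in wildtype full medium, along with most of the transcriptome. Of the cytosolic genes 1 of 20 was called higher and 14 lower, and of the mitochondrial genes 2 of 16 higher and 12 lower, beside 9.25% of all tested genes called higher and 71.8% lower. The median log2 change was -0.81 for the cytosolic and -0.79 for the mitochondrial genes, beside -0.94 for all tested genes. The members' shares were near the background. Read against the median of all genes, 11 of 20 cytosolic and 10 of 16 mitochondrial genes lay above it.

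The direction of change held under all 4 scalings for 12 of 20 cytosolic and 8 of 16 mitochondrial genes. For the others it turned under at least 1 of them. Median-of-ratios scaling moved the median of all genes to -0.09. It gave 8 cytosolic genes called higher and 4 lower, and 4 mitochondrial genes higher and 6 lower. Of all tested genes 30.7% were then called higher and 35.4% lower. Quantile normalization gave 6 higher and 6 lower cytosolic calls and 6 higher and 4 lower mitochondrial calls. Leaving out ribosomal protein genes, which took a large share of TPM in this group, gave 5 higher and 8 lower, and 4 higher and 9 lower. The shares of all tested genes under quantile normalization and without ribosomal protein genes are not given here. Vars was called higher and Dars, Farsb, Hars and Rars called lower under all 4 scalings, as were Fars2 and Lars2 higher and Iars2, Mars2, Nars2 and Rars2 lower. Kars and Qars were called lower on the TPM scale, by 0.25 and 0.18, and called higher under median-of-ratios scaling, with log2 changes of 0.76 and 0.83.

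Dars had the largest fall among the cytosolic genes, at 24.6, 22.8 and 15.5 TPM in labelled wildtype EBSS, against 93.8, 93.7 and 97.6 TPM in wildtype full medium. Its log2 change was -2.15 (SE 0.14, limma adjusted p = 1.1e-07), or -1.22 relative to the median of all genes. Rars, the arginine enzyme, was at 67.1, 66.9 and 63.3 TPM in labelled wildtype EBSS, against 204, 215 and 212 TPM in wildtype full medium, a change of -1.66 (SE 0.10, limma adjusted p = 7.6e-08). Tars was at 85.8, 82.2 and 81.3 TPM in labelled wildtype EBSS, against 243, 245 and 245 TPM in wildtype full medium, a change of -1.55 (SE 0.27, limma adjusted p = 0.00025) that median-of-ratios scaling did not keep as a call.

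Vars, the valine enzyme, went the other way, at 184, 207 and 182 TPM in labelled wildtype EBSS, against 137, 129 and 138 TPM in wildtype full medium. Its log2 change was 0.50 (SE 0.14, limma adjusted p = 0.0069), or 1.44 above the median of all genes. Aars was at 261, 309 and 295 TPM in labelled wildtype EBSS, against 188, 181 and 174 TPM in wildtype full medium, and Sars at 144, 165 and 181 TPM in labelled wildtype EBSS, against 114, 108 and 112 TPM in wildtype full medium. Both were higher in every labelled wildtype EBSS library but were not called, with limma adjusted p of 0.080 and 0.16. They were called without replicate 1 of labelled KO EBSS, which gave 3 cytosolic genes higher and 16 lower, beside 9.95% and 73.1% of all tested genes.

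The mitochondrial genes ranged most widely in labelled wildtype EBSS. Iars2 was at 9.34, 9.48 and 8.55 TPM in labelled wildtype EBSS, against 40.5, 40.1 and 41 TPM in wildtype full medium, a log2 change of -2.04 (SE 0.08, limma adjusted p = 8.9e-09). Rars2 was at 6.50, 6.73 and 6.55 TPM in labelled wildtype EBSS, against 29.2, 29.6 and 30.3 TPM in wildtype full medium, a change of -2.01 (SE 0.11, limma adjusted p = 3.1e-08). Mars2 was at 0.642, 1.44 and 0.0637 TPM in labelled wildtype EBSS, against 6.50, 5.43 and 5.76 TPM in wildtype full medium, a change of -2.09 (SE 0.26, limma adjusted p = 1.5e-05). Nars2 was at 0.569 and 0.621 TPM and listed at 0 in replicate 3, the library with 1122 tested genes at 0.

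Lars2 (chromosome 9, 123366927 to 123462666), the mitochondrial leucine enzyme, was at 58.0, 67.8 and 41.3 TPM in labelled wildtype EBSS, against 28.1, 20.2 and 24.7 TPM in wildtype full medium. All its labelled wildtype EBSS values lay above those of the other 9 libraries, which reached 28.1 TPM. The log2 change was 1.15 (SE 0.17, limma adjusted p = 7.4e-05), or 2.08 above the median of all genes. The ribosomal RNA symbol Rn45s was high in the same 3 libraries, at 1454, 2105 and 1610 TPM, and its part in the Lars2 value was not tested. Of the 31-base words of Lars2 transcripts 0.923% occur in other GENCODE genes, a search that gave no separate value for Rn45s. Fars2 was at 17.0, 22.1 and 30.1 TPM in labelled wildtype EBSS, against 10.7, 11.3 and 11.5 TPM in wildtype full medium. That was a change of 0.95 (SE 0.18, limma adjusted p = 0.00041), with 9.83% of its words shared, first of all with Nrn1. Larger shares among the members were those of Iars2 (23.6%, first of all with Rab3gap2), Iars (14.7%, Gm4849) and Aars (14.4%, Exosc6). The part of shared words in the values of these genes was not tested.

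The 8 enzymes of the cytosolic multisynthetase complex (Eprs, Iars, Lars, Mars1, Qars, Rars, Kars and Dars) were all called lower in labelled wildtype EBSS, with a median log2 change of -1.06. Of the 12 cytosolic genes outside it 1 was called higher and 6 lower, with a median of -0.58. Of all tested genes 9.25% were called higher and 71.8% lower, with a median of -0.94, so the median of the complex lay near that of all genes. Among the scaffold proteins of the complex, Aimp2 and Eef1e1 were called lower, by 1.33 and 2.09, and Aimp1 higher, by 0.37. Of the 8 enzymes only Dars and Rars stayed called lower under all 4 scalings, and Kars and Qars turned direction, as given above. Per library, Aimp1 was at 149, 157 and 177 TPM and Eef1e1 at 16.4, 14.2 and 23.5 TPM in labelled wildtype EBSS, against 127, 119 and 125 TPM and 74.9, 75.2 and 85.9 TPM in wildtype full medium. The scaffolds thus did not move together.

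**Figure D4:**
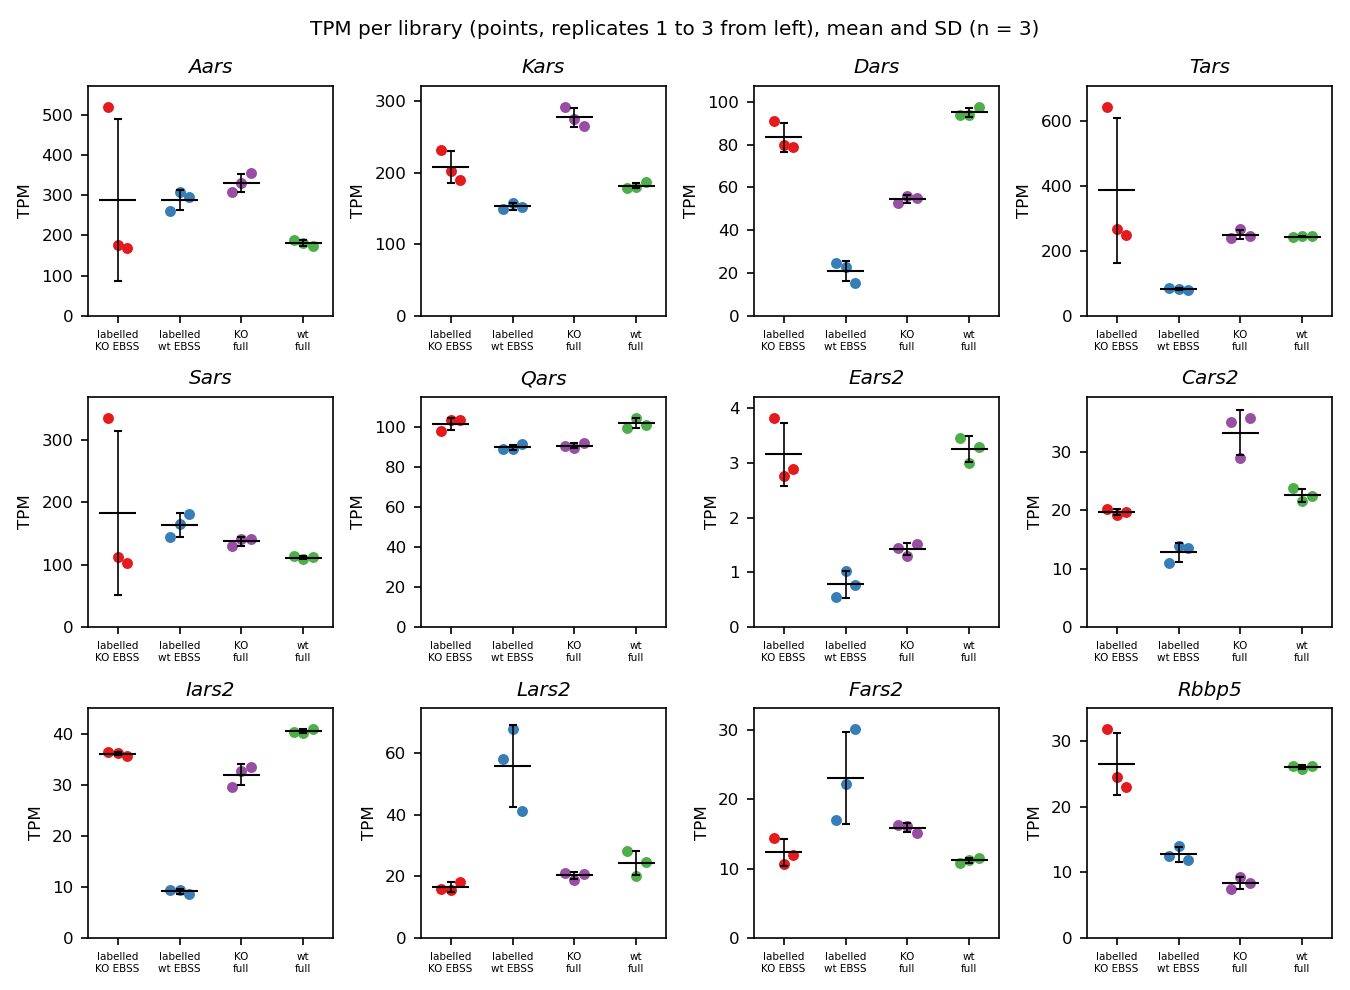
Points are TPM in each library for 11 synthetases and Rbbp5 on linear axes that start at 0, with the mean and SD of the 3 libraries of a group. Aars, Tars and Sars have 1 high library in labelled KO EBSS, Dars and Iars2 are lowest and Lars2 highest in labelled wildtype EBSS, and Qars stays between 89.2 and 105 TPM in all 12 libraries.

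Few genes were called between labelled KO EBSS and wildtype full medium, although replicate 1 of labelled KO EBSS stood apart. In that library 9.22% of all tested genes were at least 1.5-fold above the wildtype full-medium mean, against 0.759% and 0.711% in replicates 2 and 3. Its spread widens the errors of the group comparison. By limma 0 of 20 cytosolic and 0 of 16 mitochondrial genes were called, beside 0.134% of all tested genes. At an unadjusted p under 0.05, 1 cytosolic gene was higher and 2 mitochondrial genes were lower. The share of all tested genes at that unadjusted threshold is not given here, so this count is not a result about the synthetases. The largest changes were those of Tars, 0.52 (SE 0.27, limma adjusted p = 0.52), which was 0.08 without replicate 1 of labelled KO EBSS, and Lars2, -0.52 (SE 0.17, limma adjusted p = 0.29). Lars2 was at 15.8, 15.5 and 18.3 TPM in labelled KO EBSS, against 28.1, 20.2 and 24.7 TPM in wildtype full medium, with no overlap. Without replicate 1 of labelled KO EBSS the counts were also 0 and 0, and the median cytosolic log2 change was -0.08, against 0.23 with it.

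Set against KO full medium, the labelled KO EBSS libraries had 3 of 20 cytosolic genes called higher and 1 lower, and 2 of 16 mitochondrial genes higher and 2 lower, beside 33.3% and 20.9% of all tested genes. Dars, at 91.3, 80.0 and 78.9 TPM in labelled KO EBSS, against 52.6, 56.2 and 55.3 TPM in KO full medium, rose by 0.60 (SE 0.14, limma adjusted p = 0.0038). Kars, at 233, 203 and 189 TPM in labelled KO EBSS, against 292, 275 and 266 TPM in KO full medium, fell by 0.42 on the log2 scale (SE 0.08, limma adjusted p = 0.0010). Vars was at 197, 134 and 131 TPM in labelled KO EBSS, against 105, 96.0 and 120.1 TPM in KO full medium, a rise of 0.50 (SE 0.14, limma adjusted p = 0.012). Sars2 was at 21.1, 18.2 and 17.6 TPM in labelled KO EBSS, against 10.4, 8.54 and 11.1 TPM in KO full medium, a rise of 0.86 (SE 0.13, limma adjusted p = 0.00026). Cars2 was at 20.3, 19.1 and 19.7 TPM in labelled KO EBSS, against 35.2, 28.9 and 35.8 TPM in KO full medium, a log2 change of -0.72 (SE 0.12, limma adjusted p = 0.00035). Ears2 rose by 0.77 and Yars2 fell by 0.30 on the log2 scale. Qars rose by 0.16 and lost its call under another scaling. This comparison shares its KO full-medium libraries with the one of KO and wildtype in full medium, so the opposite signs of Dars, Kars, Sars2, Cars2 and Ears2 in the 2 comparisons are not independent.

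This comparison also rested on replicate 1 of labelled KO EBSS. Without it 3 of 20 cytosolic genes were called higher and 11 lower, beside 31.9% and 22.5% of all tested genes. The median log2 change without it was -0.33 for the cytosolic genes, beside 0.10 for all tested genes, and the cytosolic median was 0.07 with it. Aars then had a log2 change of -0.94 (SE 0.08, limma adjusted p = 1.0e-05), against -0.41 (SE 0.33, limma adjusted p = 0.32) with all libraries. Yars then had -0.66, Iars -0.65, Lars -0.47, Nars -0.44, Gars -0.39 and Sars -0.35, all called. The mitochondrial calls without it were 2 higher and 3 lower. Without replicate 3 of labelled wildtype EBSS, which enters through the shared spread, they were 5 higher and 5 lower.

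Between the EBSS groups, 15 of 20 cytosolic genes were called higher and 1 lower in labelled KO than in labelled wildtype EBSS, and 12 of 16 mitochondrial genes higher and 3 lower, beside 71.9% and 8.58% of all tested genes. The median log2 change was 1.07 for the cytosolic and 0.77 for the mitochondrial genes, beside 0.91 for all tested genes. Without replicate 1 of labelled KO EBSS the cytosolic median was 0.61, below the 0.88 of all tested genes, with 15 cytosolic genes called higher and 3 lower, beside 69.8% and 9.67% of all tested genes. Tars differed by 2.06 (SE 0.27, limma adjusted p = 2.7e-05), and by 1.63 without that library, where Dars had the largest cytosolic difference, 1.90. Rars2 differed by 1.88 (SE 0.11, limma adjusted p = 5.4e-08). Vars, Lars2, Fars2 and Yars2 were called lower, by 0.34, 1.67, 0.83 and 0.32. Median-of-ratios scaling moved the median of all genes to 0.09. It left 7 cytosolic genes called higher and 5 lower and 6 mitochondrial genes higher and 6 lower. Of all tested genes 34.6% were then called higher and 29.2% lower. Under all 4 scalings Dars, Eprs, Farsb, Hars, Mars1, Rars and Tars stayed higher and Vars lower, and Iars2, Mars2, Nars2 and Rars2 stayed higher and Fars2, Lars2 and Yars2 lower. Rbbp5 goes against the labels in these groups, so the direction follows the labels and not a checked genotype.

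The labelled wildtype EBSS and KO full-medium libraries differ in both labels. In labelled wildtype EBSS 1 of 20 cytosolic genes was called higher than in KO full medium and 14 lower, and 2 of 16 mitochondrial genes higher and 10 lower, beside 11.6% and 63.5% of all tested genes. Vars rose by 0.84 (limma adjusted p = 0.00025) and Lars2 by 1.39 (limma adjusted p = 2.0e-05). Hars fell by 1.66 and Mars2 by 2.17 on the log2 scale. Under all 4 scalings Vars, Fars2 and Lars2 stayed higher and Dars, Farsb, Hars, Rars, Tars, Cars2, Iars2, Mars2, Nars2 and Rars2 lower.

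The effect of EBSS differed between the labelled genotypes for 10 of 20 cytosolic and 12 of 16 mitochondrial genes by a limma interaction term, which is the log2 change of labelled KO EBSS from KO full medium minus that of labelled wildtype EBSS from wildtype full medium. All 10 cytosolic and 10 of the mitochondrial terms were positive and those of Lars2 and Fars2 were negative, beside 64.2% of all tested genes positive and 12.5% negative. The median was 0.72 for the cytosolic and 0.97 for the mitochondrial genes, beside 1.06 for all tested genes, and median-of-ratios scaling gave 2 positive and 8 negative cytosolic calls, beside 34% and 32.8% of all tested genes. Without replicate 1 of labelled KO EBSS the cytosolic terms called were 11 positive and 4 negative, beside 63.6% and 13.9%. Dars had the largest term of the members, 2.75 (SE 0.20, limma adjusted p = 2.6e-07), and stayed called under all 4 scalings, as did Rars, Iars2 and Rars2. The sign rests on EBSS labels that Rbbp5 went against. With the EBSS groups exchanged in the contrast, Dars had -1.18 (SE 0.20, limma adjusted p = 0.00034), the median of all tested genes was -0.70, and 1 cytosolic term was called positive and 15 negative, beside 8.96% and 54.3% of all tested genes.

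Genes that work beside the synthetases gave further values in full medium, where 20.1% of all tested genes were called higher and 35.8% lower. Gatc, a subunit of the amidotransferase that makes mitochondrial glutamine tRNA in place of a glutamine synthetase, was at 43.9, 50.1 and 47.8 TPM in KO full medium, against 20.5, 21.8 and 22.0 TPM in wildtype full medium. It rose by 1.11 on the log2 scale (SE 0.20, limma adjusted p = 0.00078) and was the 1 of 4 amidotransferase and formylation genes that was called. Tarsl2, another cytosolic threonine enzyme, rose by 0.35 (SE 0.13, limma adjusted p = 0.037), the 1 call among 5 other synthetase and synthetase-like genes tested. Of 7 genes for tRNA export and elongation factors, 1 was called higher and 3 lower. Eef1a1, which carries charged tRNA to the ribosome, fell to 6813, 6841 and 6197 TPM in KO full medium, against 11612, 11824 and 11831 TPM in wildtype full medium (log2 change -0.83, SE 0.08, limma adjusted p = 7.5e-06). Tsfm, a mitochondrial elongation factor, rose by 0.70 (SE 0.21, limma adjusted p = 0.015).

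For ATF4 and its companions, replicate 1 of labelled KO EBSS decided the calls in full medium. By limma 0 of these 13 genes were called between KO and wildtype full medium, with 0 at an unadjusted p under 0.05. Of the 12 listed synthetases 1, Aars, was called, beside 20.1% of all tested genes called higher and 35.8% lower. The share of all tested genes at the unadjusted threshold is not given here. Without replicate 1 of labelled KO EBSS 7 of the 13 were called higher and 5 lower. In the same fit 7 of the 12 listed synthetases were called higher and 0 lower, beside 22.2% and 38.2% of all tested genes. Ddit3 was at 464, 428 and 405 TPM in KO full medium, against 186, 172 and 157 TPM in wildtype full medium. Asns, asparagine synthetase, was at 207, 216 and 213 TPM in KO full medium, against 144, 129 and 137 TPM in wildtype full medium. Atf4 itself was at 486, 493 and 430.0 TPM in KO full medium, against 511, 531 and 552 TPM in wildtype full medium, so its KO libraries lay below the wildtype ones while those of Ddit3 and Asns lay above. In labelled wildtype EBSS Atf4 was at 981, 968 and 941 TPM and was called higher than in wildtype full medium, with a log2 change of 0.86 (SE 0.30, limma adjusted p = 0.020). Of the 13 genes 4 were called higher there and 1 lower, beside 9.25% and 71.8% of all tested genes. Of the 12 listed synthetases 0 were called higher there and 7 lower, so they did not rise with Atf4 in that group. Without replicate 1 of labelled KO EBSS 7 of the 13 were called higher and 3 lower, beside 9.95% and 73.1%. In that fit 2 of the 12 listed synthetases were called higher and 9 lower.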

How the data were processed

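The authors deposited TPM per gene symbol in a table of all 12 libraries, from poly(A) RNA prepared with an Illumina TruSeq kit, per the labels' protocols. Salmon and mm10 are named in the submitters' processing notes, and for versions, annotation and strand setting nothing is given in the sources used here. TPM keeps no depth, so read depth is unknown and no count test was run. Groups and replicate numbers came from the titles. Symbols with at least 1 TPM in at least 3 libraries were tested on log2(TPM + 1) with limma 3.58.1 (R 4.3.3), with 1 mean per group and a variance trend, for 7 comparisons, adjusted by Benjamini-Hochberg over all genes, after the script was tested on simulated data. Members and lists were chosen with earlier results of these data known. Named per comparison and compartment are up to 3 called members with the largest rise and 3 with the largest fall, or else the largest change, and others as values. Gene spans and 31-base words are from GENCODE vM21 (GRCm38), promoters from RefSeq. Figures used matplotlib 3.10.9 under Python 3.11.15.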

Additional observations from a re-analysis of the deposited data

Results flagged for a closer look

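The effect of EBSS differed between the labelled genotypes for synthetases of both compartments, as it did for most tested genes. The difference was tested as an interaction in limma, as the log2 change of labelled KO EBSS from KO full medium minus that of labelled wildtype EBSS from wildtype full medium. It was called for 10 of 20 cytosolic genes (10 positive and 0 negative) and for 12 of 16 mitochondrial genes (10 positive and 2 negative). Of all tested genes 64.2% were called positive and 12.5% negative. At an unadjusted p under 0.05 the cytosolic genes were 11 positive and 1 negative. The share of all tested genes at that unadjusted threshold is not given here.

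Dars had an interaction of 2.75, with EBSS changes of 0.60 in labelled KO and -2.15 in labelled wildtype, and -1.18 with the EBSS groups exchanged in the contrast. Tars had 2.03 (limma adjusted p = 0.00049) and Rars 1.84 (limma adjusted p = 5.0e-07). Of the mitochondrial genes, Iars2 had 2.21, Pars2 2.20 and Ears2 2.04, with limma adjusted p of 3.0e-08, 0.0015 and 3.1e-06. Lars2 had -1.43 (limma adjusted p = 0.00023) and Fars2 -1.30 (limma adjusted p = 0.00059), both with their high values in labelled wildtype EBSS. Under all 4 scalings Dars, Rars, Iars2 and Rars2 stayed called as positive and Lars2 and Fars2 as negative. Median-of-ratios scaling moved the median of all genes to 0.05. It gave 2 positive and 8 negative cytosolic and 6 positive and 5 negative mitochondrial calls, beside 34% and 32.8% of all tested genes. Ribosomal protein share and Rn45s moved with labelled wildtype EBSS, Rbbp5 went against both EBSS labels, and their part in these differences was not tested.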

How the results depend on the processing

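Of 308 recounts of called members under other settings, 284 stayed within 1.5 times the reported count. These recounts take higher and lower calls together, so they do not show a change of direction. The cytosolic interactions under median-of-ratios scaling kept their total, although most of their calls were then negative, as given above. The calls of labelled wildtype EBSS against wildtype full medium also shifted direction within a similar total. Of 1225 refits of named members, 1126 kept direction and call, 89 lost the call and 10 turned, 2 of them Qars between KO and wildtype full medium (0.0198 under median-of-ratios scaling and 0.0206 under it without replicate 1 of labelled KO EBSS). For that comparison the 5 cytosolic calls became 3 with the replicate number as a block, 14 without replicate 1 of labelled KO EBSS and replicate 3 of labelled wildtype EBSS together, 15 under median-of-ratios scaling without the first of these, 15 with the 6 libraries alone and 2 to 12 with 1 library left out (2 or 3 without any 1 full-medium library). Between the EBSS groups the 16 cytosolic calls became 10 under quantile normalization. Between labelled KO EBSS and KO full medium the 4 cytosolic calls became 17 without both libraries, 12 under median-of-ratios scaling without replicate 1, and 3 to 14 with 1 library left out, and the 4 mitochondrial calls 10 under quantile normalization, 12 without both libraries, 7 with 6 libraries and 3 to 10 with 1 left out. Between labelled KO EBSS and wildtype full medium the counts of 0 became 2 and 1 without both libraries. Between labelled wildtype EBSS and KO full medium the 15 cytosolic calls became 8 under median-of-ratios scaling. The 10 cytosolic interactions became 17 without both libraries and 9 to 15 with 1 left out. With the EBSS groups exchanged in the contrast, an alternative chosen after seeing the data, they became 16 and all 8 named interactions turned: Dars to -1.18, Tars -2.10, Rars -1.67, Iars2 -1.54, Pars2 -1.32, Ears2 -0.42, Lars2 1.91 and Fars2 0.35. The cause was not tested. The shares of all tested genes called moved with the setting too. Between KO and wildtype full medium they were 20.1% higher and 35.8% lower over all 12 libraries, and 29.2% and 47.3% with the 6 libraries alone. Between labelled wildtype EBSS and KO full medium they were 11.6% and 63.5%, and 30% and 33.2% under median-of-ratios scaling. Where no share is given, here or above, a recount is not a result about the synthetases.

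Median-of-ratios scaling, alone and without replicate 1 of labelled KO EBSS, gave other directions for part of the genes in the EBSS comparisons. The second of these settings was chosen after seeing the data. Same-numbered libraries of different groups did not deviate together (18 correlations of residuals, -0.07 to 0.08, 0 over 0.1). No pairing by number was thus seen, though with 3 libraries per group these correlations cannot exclude a shared culture or embryo. No count interval can be given for TPM, and genes near 1 TPM, such as Ears2, Mars2 and Nars2, carry the least certain values.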
